A study of Mus musculus with 6 samples.

Results

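The genes described here are the ubiquitin-specific proteases of the mouse, taken from the genes whose symbol is Usp followed by a number and which have a probe set of their own on the array. The rule used symbols and no measured value. 50 genes with 126 probe sets are described, of 18194 genes with a probe set of a single symbol, and 44 of the 50 were bright enough to be tested among 11959 genes. Usp6nl and Usp46os2 match the rule without being proteases. Usp6nl is a GTPase-activating protein of Rab proteins that is named after a USP, and Usp46os2 is a transcript from the strand opposite to Usp46. They were kept, since the rule holds them, and the counts without them are given below.

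The series compared 2 subsets of red cell precursors of Balb/C mouse fetal liver, each with 3 arrays: S3, the more mature subset, and S1, the less mature one. Neither subset carried a mutation or a treatment. Sorting used CD71 (the transferrin receptor), Ter119 (an antigen of the red cell surface) and a cocktail against other lineages, and was done on 3 separate days, according to the design text. The stage label gives embryonic day 13.5 for S3 and 12.5 for S1, while the source label gives 13.5 for both, so embryo age and subset cannot be told apart if the stage label is right. RNA was amplified from small amounts and read on an Affymetrix whole-genome array, and the deposited log2 signals had been scaled by the authors to probe sets of 18S RNA, Gapdh and beta-actin.

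Ubiquitin is a small protein that is attached to other proteins as a single unit or as a chain, and that marks them for the proteasome, for sorting or for a change of activity. Ubiquitin-specific proteases are the largest family of enzymes that take it off again, by a cysteine in their active site. Red cell precursors clear much of their proteome as they mature, and the ubiquitin system takes part in this clearing. In the nucleus, ubiquitin on histones H2A and H2B marks silent and transcribed genes.

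The arrays fell into classes that cut across the subsets, which bears on every value below. Signal from the 5' end of actin mRNA minus that from its 3' end was -2.59 to -2.08 in log2 on S3 replicate 2 and S1 replicates 1 and 2, called short here, and -0.56 to -0.45 on S3 replicates 1 and 3 and S1 replicate 3, called long. Median log2 signals of the arrays lay between 1.83 and 2.94. Over all genes, S3 minus S1 had a median of -0.33 at the authors' scaling, and of 0.13 once each array was centred on the median of its tested genes. All 9 erythroid markers with a probe set read above background on every array and 5 were higher in S3, while all 3 tested progenitor markers were lower. Also above background on every array were 5 of 5 hepatoblast markers, with a summed linear signal of 205 to 790 in S3 and 230 to 286 in S1, and 4 of 4 megakaryocyte markers, with 314 to 338 in S3 and 53.9 to 164 in S1. Of 7 macrophage markers, 4 were above background on all S3 arrays and 3 on all S1 arrays (summed signal 38.3 to 90.8 in S3 and 29.9 to 119 in S1), and the defining marker Adgre1 was above it on no array. Of 3 granulocyte and mast cell markers, Elane was above it on no array, and Mpo on 1 S3 and 2 S1 arrays. Of 3 lymphoid markers, Cd3e was above it on no array. No granulocyte, mast cell or lymphoid marker was above background on all arrays of a subset. Of 3 endothelial markers, none was above it on all S3 arrays and 1 on all S1 arrays. The summed signals of these lists lay between 1.67 and 15.7. The part of these other cells in the values below was not tested. Since the arrays read bulk RNA of sorted cells, fewer cells of a type and less RNA per cell cannot be told apart.

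Few members of the family passed the test for a difference between S3 and S1. Of the 44 genes tested, 1 was higher in S3 (Usp32), 2 were lower (Usp36 and Usp42) and 41 were not called, where called means a limma p-value under 0.05 after Benjamini-Hochberg adjustment over all genes. The 1 higher gene was 2.27% of the members, against 2.53% of all genes called higher, and the 2 lower genes were 4.55%, against 12.8% of all genes called lower. At an unadjusted p under 0.05 there were 2 higher and 9 lower members, or 4.55% and 20.5%, beside 5.33% and 24.2% of all genes. The median log2 change of the members was -0.32, beside -0.33 for all genes. Changes ran from -2.49 to 1.06, with 31 members below 0 and 13 above, beside 8126 of 11959 genes below 0 and 3833 above. In 13 members every S3 array lay below every S1 array, which is 29.5% of them and 29.5% of all genes, and in 2 members every S3 array lay above every S1 array (4.55%, against 5.81% of all genes). Without Usp6nl and Usp46os2 the counts were 1 higher and 2 lower of 42, with a median of -0.32.

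**Figure D1:**
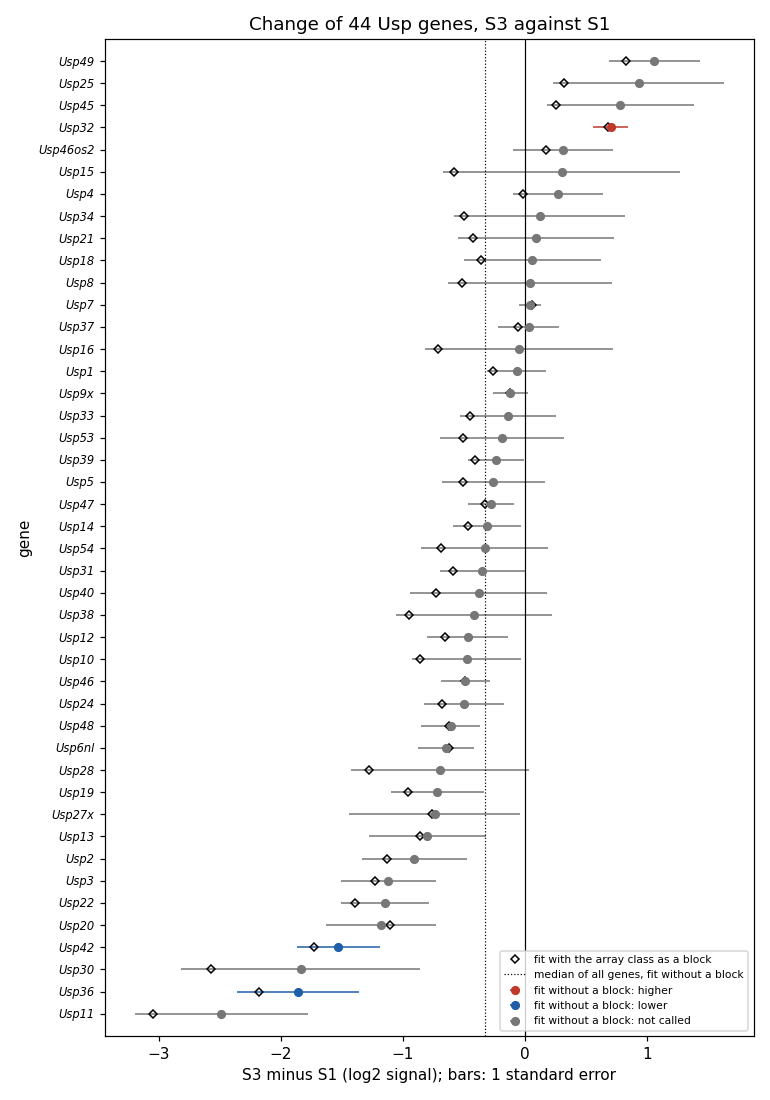
S3 minus S1 in log2 signal (x axis) for each of the 44 tested genes (y axis), with 1 standard error, from the fit over 3 S3 and 3 S1 arrays, and as open diamonds from the fit with the array class as a block. Usp32 was called higher and Usp36 and Usp42 lower in the fit without a block, and the dotted line marks the median of all genes at -0.33.

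Usp32 rose in S3. It encodes a large membrane-bound protease, known in human cells from the Golgi and late endosomes. Its brightest probe set read 9.84, 9.71 and 9.88 on S3 replicates 1 to 3, against 8.97, 9.29 and 9.09 on S1 replicates 1 to 3 (log2 signal). All S3 arrays lay above all S1 arrays, and short and long arrays read alike within a subset. The means were 9.81 ± 0.09 in S3 and 9.11 ± 0.16 in S1 (SD, n = 3 arrays each), a log2 change of 0.70 ± 0.14 (SE, limma adjusted p = 0.0194). The difference was 0.77 within long arrays and 0.58 within short ones. Its dimmer probe sets, with means of 4.28 and 3.19, changed by 1.88 ± 0.69 and 2.59 ± 0.91 and were not called (limma adjusted p = 0.153 and 0.140 over probe sets). The change was 1.16 after centring on the tested genes' median, where Usp32 was no longer called (limma adjusted p = 0.0797). Usp32 also missed the threshold without S3 replicate 1, S3 replicate 3 or S1 replicate 1 (limma adjusted p = 0.0758, 0.0856 and 0.0719).

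Usp42 fell in S3. Its product removes ubiquitin from p53 in human cells. The probe set read 7.15, 6.18 and 6.92 on the S3 arrays and 8.20, 8.13 and 8.51 on the S1 arrays. The highest S3 value stayed well below the lowest S1 value. The log2 change was -1.53 ± 0.34 (SE, limma adjusted p = 0.0236), with -1.48 within long arrays and -1.99 within short ones. The only other probe set of Usp42 was too dim to be tested. The call was lost without S3 replicate 3 (limma adjusted p = 0.0685) and without S1 replicate 1, 2 or 3 (limma adjusted p = 0.0848, 0.0779 and 0.0613).

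Usp36 also fell. It is a nucleolar protease that acts on proteins of ribosome production and, in human cells, stabilises Myc. Its probe set read 5.11, 3.84 and 5.41 on the S3 arrays, against 6.69, 6.28 and 6.96 on the S1 arrays. The short S3 array was the lowest, and the groups did not overlap. The log2 change was -1.86 ± 0.50 (SE, limma adjusted p = 0.0474), and dimmer probe sets changed by -1.0 ± 0.60 and -1.57 ± 0.91 without being called. Leaving out any of the 6 arrays ended the call (limma adjusted p from 0.0673 to 0.134).

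**Figure D2:**
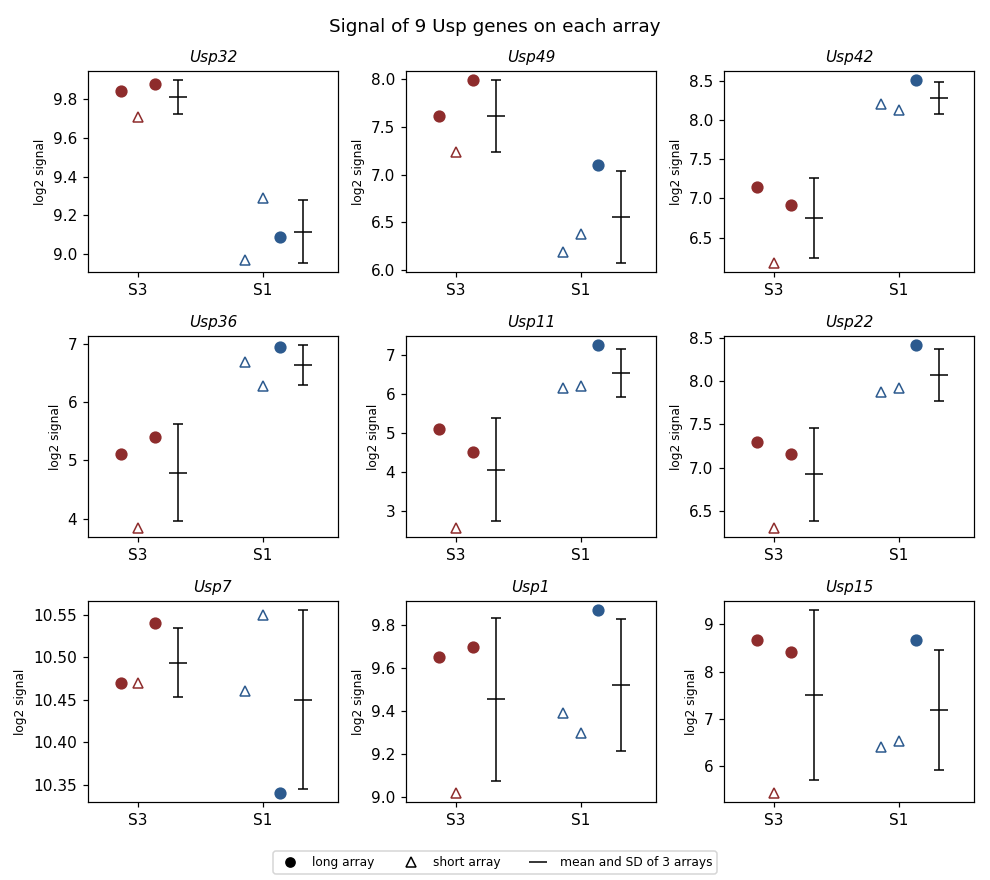
Log2 signal (y axes, each with its own range) of 9 genes on every S3 and S1 array. Circles are long arrays, triangles are short arrays, and bars show the mean and SD of 3 arrays. Usp32 and Usp49 lie higher on every S3 array, Usp42, Usp36, Usp11 and Usp22 lower, and Usp15 splits by array class.

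The promoters of Usp32 and Usp49, and of Usp36 and Usp11, are shown as examples. All S3 arrays lay above all S1 arrays in the first pair and below them in the other, the latter as in 13 members in all. These 4 promoters were picked with the values known. They are RefSeq windows of build GRCm38.p6 that run from 250 bases before the start to 50 after it. 38 of the 50 genes had such a window, 39 windows in all, and Usp42 and Usp22 had none. Capitals mark a KLF-type motif (CCNCNCCCN), an ETS-type motif (CGGAAG) or a GATA-type motif (GATAA), on either strand, and matches may overlap.
Usp32 promoter (chr11:85139906-85140205, minus strand): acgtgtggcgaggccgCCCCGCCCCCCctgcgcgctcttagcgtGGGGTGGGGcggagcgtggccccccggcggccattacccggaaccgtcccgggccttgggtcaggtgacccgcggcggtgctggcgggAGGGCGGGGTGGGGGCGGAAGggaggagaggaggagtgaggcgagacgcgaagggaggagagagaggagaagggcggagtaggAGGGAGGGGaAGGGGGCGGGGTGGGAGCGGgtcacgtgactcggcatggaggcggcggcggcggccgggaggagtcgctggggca
Usp49 promoter (chr17:47630440-47630739, plus strand): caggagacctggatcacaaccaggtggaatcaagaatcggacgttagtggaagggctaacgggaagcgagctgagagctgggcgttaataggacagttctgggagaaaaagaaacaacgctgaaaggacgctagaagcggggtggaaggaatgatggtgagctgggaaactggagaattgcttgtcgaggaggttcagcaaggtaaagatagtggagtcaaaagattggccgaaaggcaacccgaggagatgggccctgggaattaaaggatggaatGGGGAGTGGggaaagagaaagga
Usp36 promoter (chr11:118290195-118290494, minus strand): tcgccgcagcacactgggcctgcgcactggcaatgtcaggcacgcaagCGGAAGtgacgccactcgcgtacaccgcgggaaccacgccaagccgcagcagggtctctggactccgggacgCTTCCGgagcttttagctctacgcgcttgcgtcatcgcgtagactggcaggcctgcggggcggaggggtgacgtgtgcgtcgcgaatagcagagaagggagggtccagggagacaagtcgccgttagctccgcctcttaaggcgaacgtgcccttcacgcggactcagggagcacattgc
Usp11 promoter (chrX:20703659-20703958, plus strand): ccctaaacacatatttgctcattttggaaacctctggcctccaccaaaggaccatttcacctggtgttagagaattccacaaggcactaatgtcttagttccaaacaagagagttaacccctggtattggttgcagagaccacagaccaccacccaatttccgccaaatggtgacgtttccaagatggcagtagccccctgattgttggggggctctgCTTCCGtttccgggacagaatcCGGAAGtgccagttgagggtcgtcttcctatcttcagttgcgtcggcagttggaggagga
The GATA-type letters stood in none of these 4 windows, and in 2 of the 39 member windows (5.13%), against 16.8% of 12419 windows of tested genes. The KLF-type letters stood in 29 member windows (74.4%, against 66.9%), with several overlapping matches in Usp32, 1 in Usp49 and none in Usp36 or Usp11. The ETS-type letters stood in 14 (35.9%, against 29.7%), among them Usp32, Usp36 and Usp11. Member windows held a median of 27 CpG dinucleotides, against 20 for windows of tested genes, with 34 in Usp32, 33 in Usp36, 11 in Usp49 and 8 in Usp11. The member windows, unlike those set beside them, include genes that were not tested. These are Usp17la, Usp26, Usp50 and Usp9y, with 1, 5, 2 and 12 CpG. The motif counts are matches of letters and were not tested as sites.

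Among the 7 tested proteases that act on histones or in the nucleolus, 1 (Usp36) was lower in S3, none was higher and 6 were not called, with a median log2 change of -0.74 beside -0.33 for all genes. Usp22, the protease of the SAGA coactivator that takes ubiquitin off histone H2B, read 7.30, 6.30 and 7.16 on the S3 arrays and 7.87, 7.92 and 8.42 on the S1 arrays. The groups did not overlap, but the gene missed the threshold (log2 change -1.15 ± 0.36 (SE), limma adjusted p = 0.0728). Usp3, which acts on H2A and H2B, read 5.73, 4.70 and 5.17 in S3, against 6.37, 6.35 and 6.24 in S1 (-1.12 ± 0.39, limma adjusted p = 0.102). Again every S3 array was the lower. Its 4 dimmer tested probe sets changed by -0.94 to -0.32. Usp16, an H2A protease, read 6.88, 4.99 and 6.88 in S3 and 5.26, 5.96 and 7.68 in S1, which gave a change of -0.05 ± 0.77 (limma adjusted p = 0.977). These values followed the array class, with long arrays 1.98 above short ones on average over the subsets. The 95% interval (-1.85 to 1.74) leaves a change of more than 2-fold either way possible. A dim probe set of Usp16, with a mean of 1.14, changed by -3.14 ± 1.12 and was not called (limma adjusted p = 0.145 over probe sets). There every S3 array lay below every S1 array, and the S3 values were below background. Usp49, an H2B protease in human cells, had its highest readings in S3. It read 7.61, 7.24 and 7.99 on the S3 arrays and 6.19, 6.38 and 7.10 on the S1 arrays, so that S3 lay above S1 throughout. Its change of 1.06 ± 0.37 (SE) was not called (limma adjusted p = 0.104), was 0.70 within long and 0.96 within short arrays, and was 1.52 (limma adjusted p = 0.00826) after centring on the tested genes' median. Usp21, another H2A protease, changed by 0.09 ± 0.64, and Usp27x, which can share the partners of Usp22, by -0.74 ± 0.70 near background, both uncalled. Usp44 was above background on no array and was not tested.

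Of 12 tested members known from genome maintenance, the cell cycle or p53, 1 (Usp42) was lower, none was higher and 11 were not called, with a median of -0.49. Usp11, an X-linked gene whose product works in DNA repair, had the lowest fitted change of the family. It read 5.10, 2.55 and 4.51 in S3, against 6.16, 6.21 and 7.27 in S1, and the short S3 array stood far below the others. The change of -2.49 ± 0.71 (SE) lay just outside the threshold (limma adjusted p = 0.0555) and passed it after centring on the tested genes' median (-2.02, limma adjusted p = 0.0194). Usp11 and Usp49, and Usp15 among the signalling genes below, stand outside the rule for genes given in full. They were chosen after their values were seen. Usp7, which acts on Mdm2 and p53 and on GATA1 in human red cell precursors, read 10.47, 10.47 and 10.54 on the S3 arrays and 10.46, 10.55 and 10.34 on the S1 arrays. The groups overlapped, and no array stood apart. The change was 0.04 ± 0.09 (limma adjusted p = 0.821, 95% interval -0.17 to 0.25). The other 3 probe sets of Usp7 with means above 10 changed by -0.11 to 0.05, and the 3 with means near 6 by 0.58 to 1.32, none called. Usp1, which with Wdr48 takes ubiquitin off Fancd2 and Pcna, read 9.65, 9.02 and 9.70 in S3 and 9.39, 9.30 and 9.87 in S1 (-0.07 ± 0.24, limma adjusted p = 0.901). The groups overlapped. Usp10, a cytoplasmic protease of p53, changed by -0.48 ± 0.45, and Usp28, known for acting on Myc, by -0.70 ± 0.73, both with overlapping groups and uncalled. Usp48 read 7.41, 7.40 and 7.51 in S3, against 7.89, 8.23 and 8.05 in S1 (-0.61 ± 0.24, limma adjusted p = 0.138). Its groups did not overlap, yet its dimmer probe sets changed by 0.13 ± 0.49 and 0.21 ± 0.85 and followed the array class. The rest of this group, Usp2, Usp24, Usp37, Usp45 and Usp47, ran from -0.91 to 0.78.

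The 3 proteases of free ubiquitin chains and the proteasome were not called. Usp14, which sits on the cap of the proteasome, read 8.18, 8.09 and 8.59 in S3 and 8.58, 8.16 and 9.05 in S1 (-0.31 ± 0.28, limma adjusted p = 0.548). The 3 dimmer probe sets of Usp14 changed by -0.52 to 0.34, none called. Usp5, which takes apart free chains, changed by -0.26 ± 0.42, and its relative Usp13 by -0.80 ± 0.48.

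Of 8 members of organelles and membrane traffic, 1 (Usp32) was higher, none was lower and 7 were not called. Usp30, which lies in the outer mitochondrial membrane and opposes Parkin-driven mitophagy, read 4.40, 0.76 and 4.29 in S3, against 5.03, 4.40 and 5.53 in S1. S3 replicate 2 was below background, and the change was -1.84 ± 0.98 with it (limma adjusted p = 0.271) and -0.64 without it (limma adjusted p = 0.449). Usp8, which sorts receptors at endosomes, read 6.52, 4.67 and 6.74 in S3 and 5.47, 5.46 and 6.88 in S1 (0.04 ± 0.67, limma adjusted p = 0.980). Its values split by array class and not by subset. Usp19 of the endoplasmic reticulum (-0.72 ± 0.38), the pair Usp20 and Usp33 (-1.18 ± 0.45 and -0.14 ± 0.39), Usp25 (0.93 ± 0.70) and the GTPase activator Usp6nl (-0.65 ± 0.23) were not called. In Usp19, Usp20 and Usp6nl every S3 array lay below every S1 array.

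None of the 9 members known mainly from signalling was called, and their median was -0.12. Usp9x, a large X-linked protease that stabilises Mcl1, read 9.20, 9.34 and 9.31 in S3 and 9.30, 9.47 and 9.47 in S1 (-0.12 ± 0.14, limma adjusted p = 0.634). Its 6 other tested probe sets changed by -0.57 to 0.40. Usp46, a partner of Wdr48, read 8.07, 8.25 and 8.25 in S3, against 8.50, 8.78 and 8.75 in S1 (-0.49 ± 0.20, limma adjusted p = 0.149), and a second probe set changed by -0.47. No S3 array reached an S1 array. Usp12, its close relative, changed by -0.47 ± 0.33. Usp18, which removes the ubiquitin-like protein ISG15, read 5.80, 4.40 and 5.63 in S3 and 4.85, 4.76 and 6.04 in S1 (0.06 ± 0.56, limma adjusted p = 0.961). Usp15, a protease of TGF-beta signalling, read 8.66, 5.43 and 8.42 in S3, against 6.40, 6.53 and 8.66 in S1. The change of Usp15 was 0.30 ± 0.97 (SE, limma adjusted p = 0.884). The 3 long arrays read alike and the 3 short ones were lower. Usp4, Usp31, Usp34 and Usp38 ran from -0.42 to 0.27.

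Of the remaining 10 members, 5 were tested and none was called. Usp39, a splicing factor of this family that lacks protease activity, read 9.50, 8.93 and 9.61 in S3 and 9.56, 9.33 and 9.87 in S1 (-0.24 ± 0.23, limma adjusted p = 0.568). A dimmer probe set of Usp39 changed by 0.18 ± 0.51, uncalled, with long arrays 1.37 above short ones on average over the subsets. Usp40, Usp53, Usp54 and Usp46os2 ran from -0.38 to 0.31. Usp9y, Usp17la, Usp26, Usp43 and Usp50 were too dim to be tested.

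Many of these readings differed between the array classes. In 15 members (34.1%, against 30.3% of all genes) long arrays read more than 1 log2 unit above short ones. Within the classes, 37 of the 44 members were lower in S3 in both, 4 were higher in both and 3 had opposite signs. These signs were not counted over all genes. The median change of the members was -0.54 within long arrays and -0.62 within short ones, beside -0.59 and -0.49 for all genes. With the class as a block in the fit, 2 members were higher (Usp32 and Usp49) and 21 lower, which is 4.55% and 47.7% of them, beside 5.81% and 41.2% of all genes, and the median change was -0.59, beside -0.54. Usp42 changed by -1.73, Usp36 by -2.18, Usp11 by -3.05, Usp22 by -1.39 and Usp3 by -1.23 in that fit (limma adjusted p = 5.83e-05, 2.35e-04, 6.37e-05, 1.66e-04 and 0.00595). The direction of many other members turned with the scaling. After centring on the tested genes' median without a block, 2 members were higher (Usp45 and Usp49) and 3 lower (Usp11, Usp36 and Usp42), or 4.55% and 6.82%, beside 5.93% and 5.79% of all genes. With both the block and this centring 12 members were higher, among them Usp1, Usp9x and Usp39, and 5 lower, or 27.3% and 11.4%, beside 23.6% and 13.8% of all genes. The 5 lower ones were Usp11, Usp22, Usp30, Usp36 and Usp42. In that fit Usp7 was called higher (0.83, limma adjusted p = 9.44e-05), whereas its change was 0.04 at the authors' scaling. In all 4 of these fits the fitted change of Usp11, Usp36, Usp42, Usp22 and Usp30 was below 0 and that of Usp32 and Usp49 above 0. These genes were picked with their values known. Other members kept their sign too, among them Usp3 and Usp20 below 0 and Usp45 and Usp25 above 0.

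**Figure D3:**
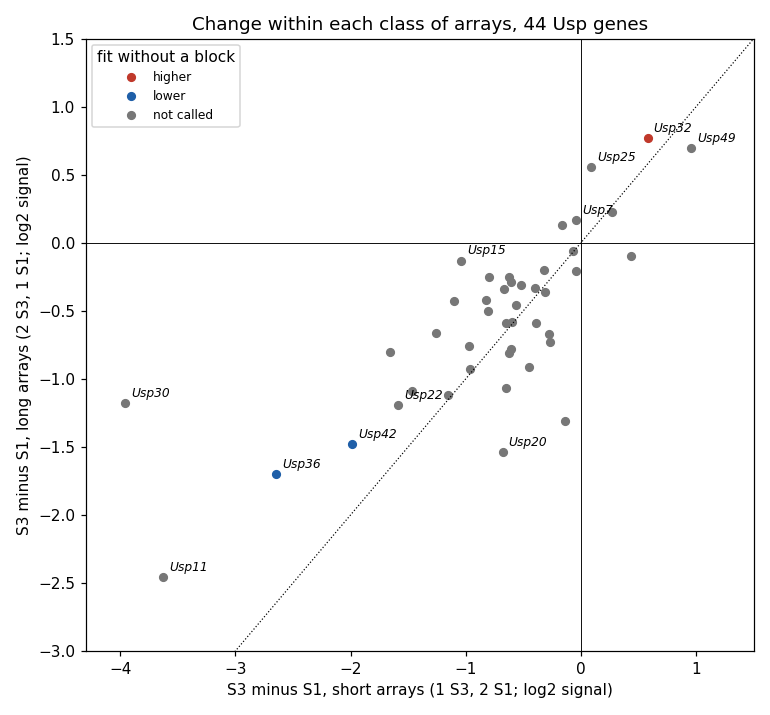
S3 minus S1 in log2 signal within short arrays (x axis) and within long arrays (y axis) for the 44 tested genes, with the dotted line where both are equal. 37 genes lie at the lower left and 4, among them Usp32 and Usp49, at the upper right, which was not counted over all genes. The median change of all genes was -0.49 within short arrays and -0.59 within long ones.

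Probe sets of one gene could differ in sign. 31 members had 2 or more tested probe sets, and 47 of their 66 further probe sets had the sign of the brightest one. Shared signs were not counted over all genes, so this share cannot be read as high or low. Tested one by one, 2 of 110 member probe sets were called, the brightest ones of Usp32 and Usp42. The share called among all tested probe sets was not counted, so these 2 cannot be read as few or many. With all probe sets of a gene averaged, limma called none of 42 members in either direction, beside 1.9% of all genes higher and 7.29% lower. At an unadjusted p under 0.05, for which all genes were not counted in this fit, 2 members were higher and 4 lower.

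**Figure D4:**
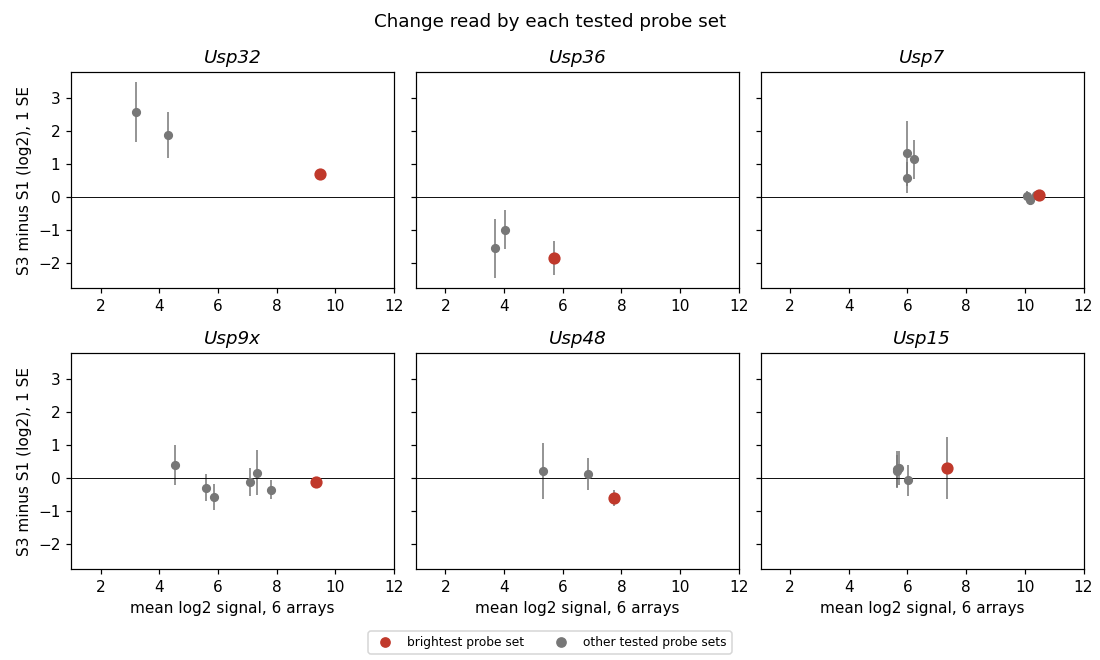
S3 minus S1 with 1 standard error (y axes) against the mean log2 signal over 6 arrays (x axes) for every tested probe set of 6 genes, the brightest in red. The dim probe sets of Usp32 have fitted changes of 1.88 and 2.59, beside 0.70 for the brightest, and the 4 bright probe sets of Usp7 lie within 0.11 of no change.

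The other families of deubiquitinases and the partners of these proteases give the setting. Of 12 tested OTU proteases 2 were higher and 2 lower in S3 (median -0.31), among them Yod1, which works with the ATPase p97, at 0.74 ± 0.13, Otud6b at -1.98 ± 0.34 and Otud4 at -0.91 ± 0.17 (SE, limma adjusted p = 0.0121, 0.0104 and 0.0128). Both tested Josephins were called, Josd2 higher (1.61 ± 0.27, limma adjusted p = 0.00967) and Atxn3 lower (-0.76 ± 0.16, limma adjusted p = 0.0202). Of 11 metalloproteases of the JAMM family 1 was lower, Stambpl1 (-2.22 ± 0.61, limma adjusted p = 0.0479), and none was higher. None of 3 UCH proteases, with Uchl1 at -0.47 ± 0.54 and Uchl5 at -0.25 ± 0.39, and none of 4 MINDY or ZUP1 genes, with Mindy2 at 1.89 ± 0.64 and Mindy1 at -0.24 ± 0.32, was called. Of 3 genes with a USP fold but another symbol, Uspl1, a protease of the ubiquitin-like protein SUMO, fell. It read 8.33, 8.25 and 8.33 in S3, against 9.22, 9.19 and 9.27 in S1 (-0.92 ± 0.16, limma adjusted p = 0.0111), and the groups did not overlap. After centring on the tested genes' median its change was -0.46 (limma adjusted p = 0.469).

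Of 5 tested ubiquitin and activating enzyme genes, Uba7, the activating enzyme of ISG15, was higher (2.73 ± 0.56, limma adjusted p = 0.0190), and Uba6, which activates ubiquitin, and Sae1, which activates SUMO, were lower (-1.69 ± 0.29 and -1.24 ± 0.24, limma adjusted p = 0.0101 and 0.0161). Of 15 partner proteins 1 was lower, G3bp1, which binds Usp10 (-0.92 ± 0.17, limma adjusted p = 0.0121), with none higher. Of 13 known substrates 3 were lower, Hif1a (-0.80 ± 0.17), Cdc25a (-1.18 ± 0.29) and Ctnnb1 (-0.43 ± 0.11), and none was higher (limma adjusted p = 0.0197, 0.0341 and 0.0442). Of 39 proteasome genes 2 were lower, the immunoproteasome subunit Psmb10 (-2.31 ± 0.29, limma adjusted p = 0.00416) and the lid subunit Psmd11 (-1.03 ± 0.17, limma adjusted p = 0.00923), none was higher, and the median change was -0.05.

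Many of these calls in the other lists depended on the scaling. After centring on the tested genes' median, Otud6b, Josd2, Stambpl1, Uba6, Uba7 and Psmb10 passed the threshold in the same direction, and Yod1, Otud4, Atxn3, Uspl1, Sae1, G3bp1, Hif1a, Cdc25a, Ctnnb1 and Psmd11 did not (limma adjusted p from 0.0732 for Yod1 to 0.967 for Ctnnb1). With the class block and this centring Yod1 and Sae1 passed it again (1.49 and -0.64, limma adjusted p = 8.07e-06 and 0.00584). In that fit G3bp1 changed by -0.07, Hif1a by -0.04, Psmd11 by -0.19, Otud4 by -0.17, Uspl1 by -0.18, Cdc25a by -0.43 and Atxn3 by 0.02, all uncalled, and Ctnnb1 was called higher (0.40, limma adjusted p = 0.0117).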

How the data were processed

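RNA of 3 S3 and 3 S1 samples was amplified with NuGEN reagents and hybridised to Affymetrix Mouse Genome arrays, per the labels' protocols. The authors computed MAS5 signals and scaled them to 3 reference probe sets, per the series' design text, and deposited values that reach below 0 and were taken as log2 signals. For the base of the logarithm and the MAS5 version, no statement was found: not given in the sources used here.

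Arrays were grouped by their titles. Probe sets were named by the platform annotation where it gave 1 symbol, and 4 probe sets shared by a member and another gene were left out. RefSeq gene identifiers matched 124 of the 126 member probe sets and changed 0 symbols. One further gene that fits the symbol rule is not reported here. The brightest probe set stood for each gene. Genes whose mean over the 6 arrays passed the 40th percentile of non-control probe sets (log2 1.12) were tested, S3 minus S1, with limma 3.58.1 (R 4.3.3, intensity trend, two-sided) and Benjamini-Hochberg adjustment over 11959 genes. Background was the 95th percentile of 27 bacterial control probe sets per array (1.00 to 1.74). Members, lists, roles and array classes (actin difference below or above -1.5) were chosen with earlier results of these data known. Genes given in full were up to 12 called members in each direction and 16 members listed for their known roles. Of the listed ones, Usp5, Usp10 and Usp28 are given by change and SE only. From each list up to 3 called genes with the smallest p were named, or 2 where none was called. The number of arrays limits the precision. The fit was tested on simulated data, in which noise was drawn independently for each gene and array. These data held no difference of class or scaling between arrays, so they cannot show how the fit handles one. Alternatives were other scalings, filters, variance priors, probe set choices, blocks and left-out arrays.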

Additional observations from a re-analysis of the deposited data

How the results depend on the processing

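The number of called members, 1 higher and 2 lower, rested on few arrays and on the scaling. With the replicate block the counts were 1 higher and 4 lower. Same-numbered arrays deviated together with r = -0.19, 0.36 and 0.43, and S3 replicate 1 deviated most like S1 replicate 3 (r = 0.40). Pairs of arrays of the same class had r from 0.28 to 0.43, and r was negative in all pairs across the classes. Since r followed the array class, it cannot decide whether same-numbered arrays were paired. All genes are given after each pair as percent higher and lower, which were 2.53% and 12.8% at the settings reported and 3.45% and 15.9% with the replicate block. The counts were 1 and 3 after median centring (4.0% and 8.13%), 2 and 4 after quantile normalization (5.83% and 9.4%) or with a common trimmed mean (5.15% and 9.51%), 1 and 1 with no filter (1.5% and 7.15%) or with specific probe sets (2.44% and 11.6%), 1 and 3 with a constant added (2.76% and 13.5%), 0 and 1 with no intensity trend (1.92% and 10.5%), and 0 and 0 with the mean of probe sets (1.9% and 7.29%). They were 1 and 2 with the 60th percentile filter (3.6% and 17.1%) or a robust trend (2.48% and 12.6%). The class block gave 2 and 21 (5.81% and 41.2%), this block with median centring 3 and 5 (8.56% and 16.8%), long arrays alone 3 and 14 (5.16% and 34.7%), and short arrays alone 0 and 8 (2.82% and 21.7%), the lone array of a subset being assumed to vary like the others. Leaving out single arrays gave 0 to 1 higher and 0 to 1 lower (0.995% to 3.09% and 4.52% to 10.6%). Where a count was 0, 1 to 2 members were higher and 4 to 6 lower in these limma fits at an unadjusted p under 0.05. At that unadjusted p all genes were counted only at the settings reported, with 5.33% higher and 24.2% lower. Chosen after the data were seen, centring on the tested genes' median gave 2 and 3 (5.93% and 5.79%), and with the class block 12 and 5 (23.6% and 13.8%). Under that last setting the sign turned for Usp1 (0.51), Usp9x (0.65) and Usp39 (0.35), which were then called higher. Usp32 kept a positive change and Usp36 and Usp42 a negative one in all of the 21 settings other than these centrings, and they passed the threshold in 14, 11 and 16 of these. The cause of these differences was not tested. Dim members near background have only a rough value.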
